A study of Rattus norvegicus with 8 samples.

Results

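The genes described here are 9 components of calcium entry across the plasma membrane: the store sensors Stim1 and Stim2, the store-operated pore Orai1, the TRPC channels Trpc1 and Trpc6, the voltage-gated pore Cacna1c, the TRPV channels Trpv2 and Trpv4, and the mechanosensitive channel Piezo1. They were chosen by symbol from 32623 annotated genes, and each symbol had 1 row. Whole lung of rats was profiled by RNA sequencing in 4 libraries from animals treated with monocrotaline (MCT) and 4 libraries from a control group. Monocrotaline, a pyrrolizidine alkaloid, damages lung vessels and gives rats raised pulmonary arterial pressure, and the labels name it as a model of pulmonary hypertension. Strain, sex, age, dose, route, time after treatment and what the control animals received are not given in the sources used here. The labels do not state whether each library is a different rat, and the p-values therefore refer to the spread among libraries, which may be technical in part.

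Calcium entering pulmonary arterial smooth muscle drives contraction and, when sustained, proliferation. When the endoplasmic reticulum empties, STIM proteins in its membrane sense the loss and open ORAI pores at the cell surface, a route called store-operated entry. TRPC channels are opened by receptors that act through phospholipase C, Cav1.2 (the product of Cacna1c) by depolarisation, TRPV4 by swelling, heat and lipid mediators, and PIEZO1 by membrane tension. Several of them are also used by other lung cells: PIEZO1 and TRPV4 by endothelium, TRPV4 by epithelium and TRPV2 by macrophages.

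Depth, estimated from the counts, was 11.3 to 18.1 M read pairs per MCT library and 10.8 to 14.8 M per control library. Alveolar genes were abundant in every library: the summed level of 8 alveolar type 2 markers was 20800 to 27000 FPKM in MCT and 28900 to 37500 in control. FPKM, fragments scaled to transcript length and library depth, is the scale used here for levels, since it allows genes of different length to be compared. Summed marker levels of other cell types moved with treatment. Macrophage markers (12, of which 7 of 11 tested were called higher and none lower) summed to 506 to 928 FPKM in MCT against 249 to 372 in control, with Marco at a mean of 0.075 FPKM in MCT and listed at 0 in control. Mast cell markers (8, of which 7 were higher and 1, Kit, lower) summed to 246 to 1140 FPKM in MCT against 66.6 to 70.2 in control. Kit alone stood at 16.71 to 32.82 FPKM in MCT and 46.67 to 57.31 in control, so it made up most of the control sum. Fibroblast markers (7, of which 4 were higher) summed to 1120 to 1860 in MCT against 629 to 782 in control, and endothelial markers (11, of which 5 were lower and 1 higher) to 951 to 1230 in MCT against 1510 to 1710 in control. Smooth muscle markers (10, of which 1 was higher and 1 lower) overlapped, at 846 to 1320 in MCT and 787 to 1100 in control. In whole tissue, more cells of a type and more RNA per cell cannot be told apart. The libraries MCT 1 and control 1 stood apart from the rest in an earlier pass over these data, so results were also computed without both.

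Of the 9 genes, Trpc6 and Trpv2 were higher in MCT lungs and none was lower at a Benjamini-Hochberg adjusted p under 0.05 in edgeR's quasi-likelihood test. Trpc6 was 2.24-fold higher (95% interval 1.42 to 3.51) and Trpv2 1.62-fold higher (1.19 to 2.21). Piezo1, not called here, had an unadjusted p under 0.05 and was called lower by DESeq2, the 1 gene of the 9 for which that held. For the 7 genes not called the fold change lay between 0.803 for Piezo1 and 1.02 for Orai1. Among all 16715 genes tested, 20.5% were called, 11.0% as higher and 9.45% as lower. The 2 of 9 called here, 22.2%, is a share close to that background. FPKM of the groups did not overlap for 1 of the 9 upwards (Trpv2) and 1 downwards (Piezo1), against 13.3% and 11.7% of all genes tested and 25.0% in either direction. The median log2 fold change was -0.05 over the 9 genes and 0.03 over all genes tested. All 9 genes passed the filter on low counts.

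**Figure D1:**
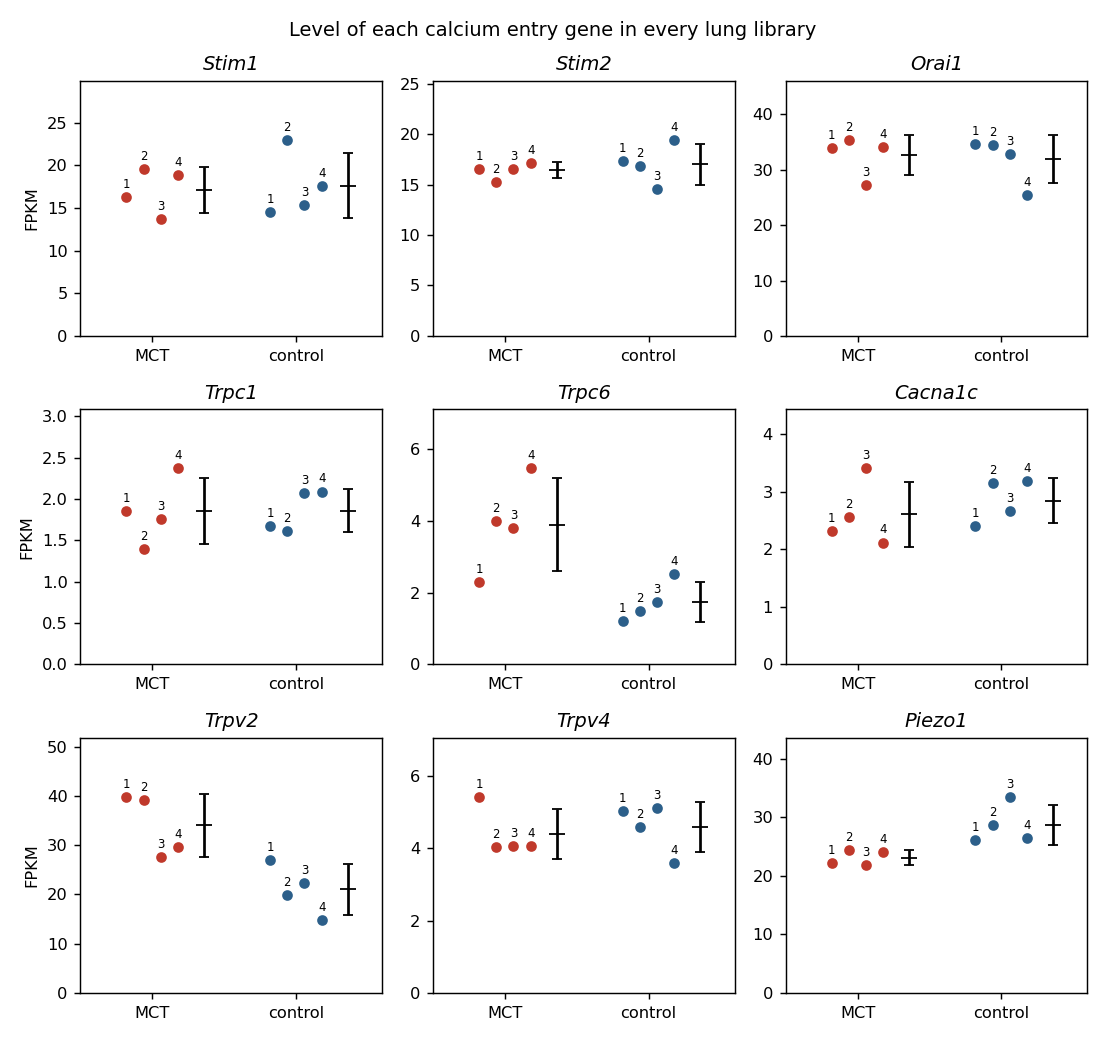
FPKM of each calcium entry gene (vertical axis from 0, one panel a gene) in the 4 MCT and 4 control libraries, numbered by replicate, with the group mean and SD in black. All 4 MCT libraries lay above the control libraries for Trpv2 and below them for Piezo1, 3 of 4 lay above them for Trpc6, and the groups overlapped for the other genes.

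Among the store-operated components, Stim1, the main sensor of store depletion, stood at 16.25, 19.55, 13.68 and 18.93 FPKM in MCT libraries 1 to 4, against 14.50, 23.00, 15.41 and 17.57 in control libraries 1 to 4. The control library 2 held the highest value and MCT 3 the lowest, and the groups overlapped throughout. Its log2 fold change was -0.05 (95% interval -0.43 to 0.34, edgeR adjusted p 0.882). Stim2, the sensor that responds to smaller losses of stored calcium, stood at 16.58, 15.26, 16.49 and 17.14 FPKM in MCT, against 17.31, 16.85, 14.54 and 19.42 in control. Its MCT libraries lay within the range of the control libraries, with a coefficient of variation of 4.84% in MCT, the smallest among the 9 genes. The log2 fold change of Stim2 was -0.06 (-0.26 to 0.15, adjusted p 0.71), the narrowest interval in the set. Orai1, the pore that the sensors open, stood at 33.92, 35.40, 27.32 and 34.13 FPKM in MCT, against 34.70, 34.51, 32.79 and 25.44 in control. In each group 3 libraries lay close together and 1 lay lower, MCT 3 and control 4. The log2 fold change of Orai1 was 0.03 (-0.27 to 0.33, adjusted p 0.888).

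The balance between these partners within a library was also set side by side. The FPKM ratio of Stim1 to Orai1 was 0.479, 0.552, 0.501 and 0.555 in MCT, against 0.418, 0.666, 0.47 and 0.691 in control. The mean log2 ratio was -0.94 ± 0.11 in MCT and -0.87 ± 0.36 in control (SD, n = 4 each), a difference of -0.07 (exact permutation test, two-sided, p = 0.657, 0.876 adjusted over 4 ratios). The ratio of Stim2 to Stim1 was 0.781 to 1.21 in MCT and 0.733 to 1.19 in control, a log2 difference of -0.02 (exact permutation p = 0.943). Both sensors stood at similar levels per length in both groups.

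Among the channels opened through receptors, Trpc6 was higher in MCT lungs. TRPC6 is opened directly by diacylglycerol and is expressed in pulmonary arterial smooth muscle. Its level was 2.30, 4.0, 3.81 and 5.46 FPKM in MCT libraries 1 to 4, against 1.20, 1.5, 1.75 and 2.51 in control libraries 1 to 4. MCT 1 was the lowest of its group and fell under control 4, the highest of the other group, so the groups overlapped by that pair. The means were 3.89 ± 1.29 FPKM in MCT and 1.74 ± 0.56 in control (SD, n = 4 each), with a log2 fold change of 1.16 (SE 0.29, edgeR adjusted p 0.0215). These values rest on 94 to 353 read pairs a library in MCT and 64 to 97 in control. The call was lost without MCT 2, MCT 4 or control 2 (adjusted p 0.056, 0.0611 and 0.0654), and over all settings tried the log2 fold change was 0.82 to 1.37 (adjusted p 0.0011 to 0.0654). With MCT 1 and control 1 both left out it was 1.20 (adjusted p 0.0118).

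Trpc1, a TRPC subunit that joins other channels in mixed complexes, did not pass the test. It stood at 1.86, 1.40, 1.76 and 2.37 FPKM in MCT, against 1.67, 1.61, 2.07 and 2.09 in control, and MCT libraries held both the highest and the lowest value. Its log2 fold change was -0.01 (-0.44 to 0.42, adjusted p 0.98) on 80 to 187 read pairs in MCT and 95 to 107 in control. The FPKM ratio of Trpc6 to Trpc1 was 1.24, 2.86, 2.16 and 2.30 in MCT, against 0.719, 0.932, 0.845 and 1.20 in control. Every MCT library lay above every control library. The mean log2 ratio differed by 1.17 (1.03 ± 0.52 in MCT, -0.14 ± 0.31 in control, SD, n = 4 each), with an exact permutation p of 0.0286, the smallest that 4 against 4 libraries allow, and 0.0571 adjusted over the 4 ratios. A single ratio or a pair of ratios at that smallest p cannot pass a correction over 4 ratios, however far apart the groups lie. The adjusted value therefore does not decide on this difference. Nor is the ratio separate from the Trpc6 result above, since the log2 fold change was 1.16 for Trpc6 and -0.01 for Trpc1.

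Levels of marker genes varied alongside Trpc6 within the MCT group. The library with the lowest Trpc6, MCT 1, also had the lowest summed fibroblast markers (1120 FPKM) and mast cell markers (246), and the library with the highest Trpc6, MCT 4, had the highest of both (1860 and 1140). Much of the fibroblast sum was the collagen gene Col3a1, at 572.6 FPKM in MCT 1 and 1064.07 in MCT 4. Pdgfra, Dcn and Tcf21 of the same list were not called between the groups (1.05-, 0.951- and 1.11-fold in MCT). In control the fibroblast order ran the other way: control 1, with the lowest Trpc6, had the highest sum (782) and control 4, with the highest Trpc6, the lowest (629). Control mast cell sums lay within 66.6 to 70.2, but most of each was Kit (46.67, 51.24, 53.72 and 57.31 in control libraries 1 to 4). Their part in the Trpc6 difference was not tested. The smooth muscle sum was 931, 1320, 1040 and 846 FPKM in MCT libraries 1 to 4, in the order of Trpc6 for MCT 1 to 3 but lowest in MCT 4. In control libraries 1 to 4 it was 1100, 810, 814 and 787. The part of smooth muscle was not tested either.

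**Figure D2:**
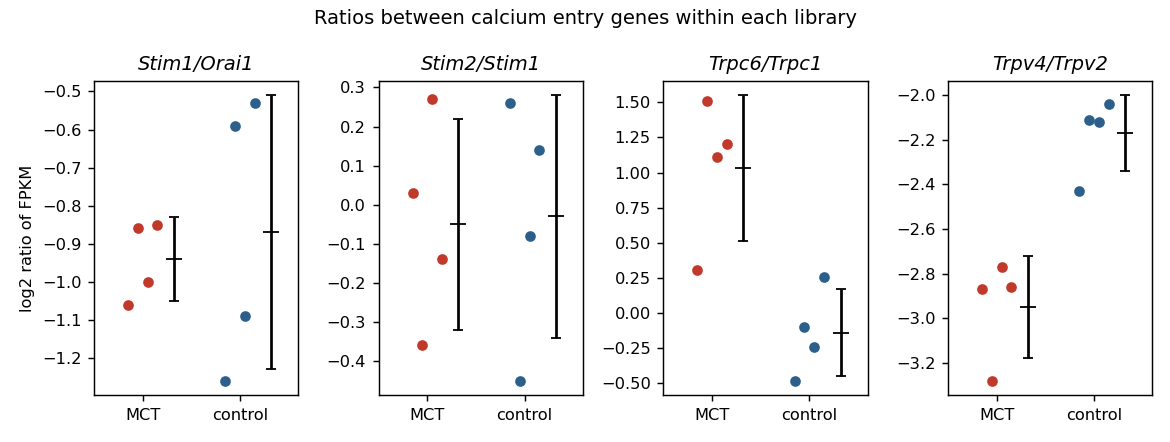
Log2 ratio of FPKM between pairs of calcium entry genes in each MCT and control library (points), with group mean and SD in black; each panel has its own vertical axis. The groups do not overlap for Trpc6/Trpc1 (MCT above) or Trpv4/Trpv2 (MCT below), and overlap for Stim1/Orai1 and Stim2/Stim1.

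Cacna1c encodes the pore of the L-type channel that carries depolarisation-driven calcium entry in smooth and cardiac muscle. It stood at 2.32, 2.57, 3.41 and 2.12 FPKM in MCT, against 2.40, 3.16, 2.67 and 3.19 in control. MCT libraries held the highest value and the 2 lowest. The log2 fold change was -0.14 (-0.50 to 0.23, adjusted p 0.611). Cardiac myocyte markers summed to 165 FPKM in MCT 1 and 27.4 to 54.4 in the other MCT libraries, against 29.6 to 69.9 in control, while Cacna1c in MCT 1 was among the lower values.

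Of the TRPV channels, Trpv2 was higher in MCT lungs. It stood at 39.82, 39.17, 27.60 and 29.59 FPKM in MCT libraries 1 to 4, against 27.05, 19.85, 22.26 and 14.81 in control libraries 1 to 4. The groups did not overlap, although MCT 3 lay only just above control 1. The means were 34.0 ± 6.35 FPKM in MCT and 21.0 ± 5.09 in control (SD, n = 4 each), and the log2 fold change was 0.70 (SE 0.20, edgeR adjusted p 0.0375). The call was lost without MCT 1, MCT 2, control 2, control 3 or control 4 (adjusted p 0.0741, 0.101, 0.0872, 0.0693 and 0.0636), with the log2 fold change between 0.55 and 0.84 in every setting tried. With MCT 1 and control 1 both left out it was 0.74 (adjusted p 0.0379).

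Macrophages express TRPV2, and the sum of their markers was higher in MCT lungs, with 7 of 11 called higher as given above. Within the groups the libraries followed no single order. MCT 1 and MCT 2 had nearly equal Trpv2, the highest of the MCT libraries, beside the lowest and the highest macrophage sum (506 and 928 FPKM), and MCT 3 had the lowest Trpv2 beside a sum of 788. In control, control 1 had the highest Trpv2 and the lowest macrophage sum (249), and control 3 the next highest Trpv2 and the highest sum (372). The part of macrophages in the difference between groups was not tested.

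Trpv4, expressed by endothelium, epithelium and smooth muscle, stood at 5.43, 4.03, 4.06 and 4.07 FPKM in MCT, against 5.03, 4.60, 5.13 and 3.60 in control. The MCT libraries 2 to 4 were nearly equal and MCT 1 lay above every other library. Its log2 fold change was -0.06 (-0.44 to 0.31, adjusted p 0.83). The FPKM ratio of Trpv4 to Trpv2 was 0.103 to 0.147 in MCT and 0.186 to 0.243 in control, with no overlap. The mean log2 ratio differed by -0.77 (-2.95 ± 0.23 in MCT, -2.17 ± 0.17 in control, SD, n = 4 each). Its exact permutation p was 0.0286, and 0.0571 adjusted over the 4 ratios. That adjusted value has the same limit as the one of Trpc6 to Trpc1 and does not decide either. The ratio largely repeats the Trpv2 result, with log2 fold changes of 0.70 for Trpv2 and -0.06 for Trpv4.

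Piezo1, the tension-gated channel through which endothelium senses flow, was just outside the threshold. It stood at 22.12, 24.38, 21.83 and 24.10 FPKM in MCT, against 26.18, 28.74, 33.51 and 26.44 in control, and every MCT library was below every control library. The means were 23.1 ± 1.32 FPKM in MCT and 28.7 ± 3.4 in control (SD, n = 4 each), a log2 fold change of -0.32 (95% interval -0.54 to -0.09 with no correction for multiple testing, edgeR adjusted p 0.0521). It passed with DESeq2 (adjusted p 0.0219), with DESeq2 size factors (0.0492), with a filter on FPKM (0.0474), with counts divided by the step (0.0475) and without control 1 (0.046). It was not called in the other 14 of 19 alternatives. Among these were limma (adjusted p 0.0509 to 0.0511) and edgeR with a block on the replicate number (0.112). Without control 3 its log2 fold change was -0.23 (edgeR adjusted p 0.113). The sum of the endothelial markers was lower in MCT over the same libraries, with 5 of 11 called lower and 1, Emcn, higher. Ramp2 was the largest part of that sum, at a mean of 298 FPKM in MCT and 559 in control. The part of endothelial cells in the Piezo1 values was not tested.

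Levels also moved with gene length between the groups, which bears on the longest of the 9 genes. From the counts and FPKM, Piezo1 had an implied transcript length of 8526 bases and Cacna1c of 8337, both at percentile 98 of the genes tested, whereas Orai1 had 1172 (percentile 19). The log2 level of long genes relative to short ones (percentiles 90 and 10 of length, each relative to its own mean over the libraries) was -0.17 to -0.15 across MCT libraries and -0.04 to 0.21 across control libraries. With each library's length trend removed, an alternative chosen after seeing the data, the log2 fold change of Piezo1 was -0.10 (adjusted p 0.574) and that of Cacna1c 0.08 (0.766). Under the same setting Trpc6 (1.22, adjusted p 0.0195) and Trpv2 (0.72, adjusted p 0.0376) kept their calls. The length trend and the treatment cannot be told apart in this design.

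**Figure D3:**
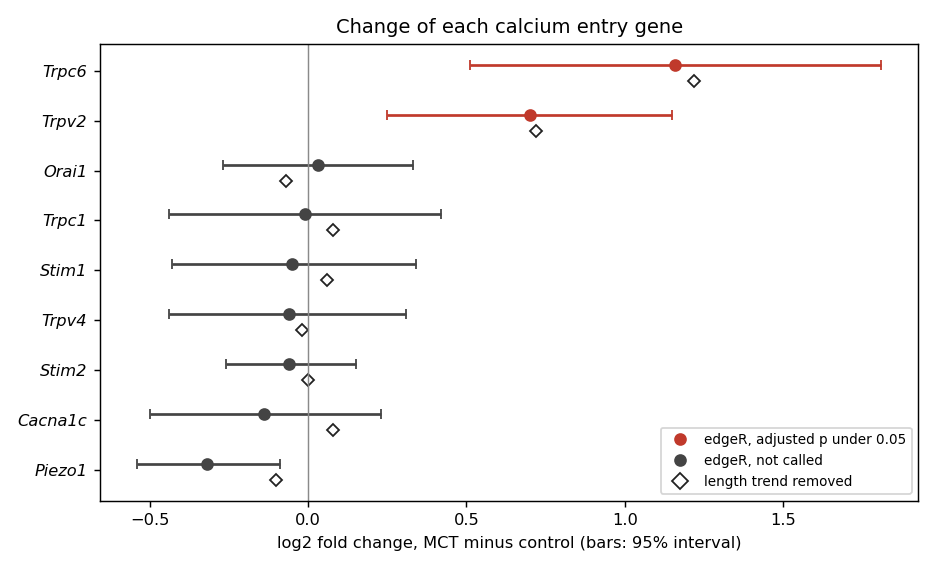
Log2 fold change (MCT minus control, horizontal axis) of each calcium entry gene from edgeR with its 95% interval (circles, red where called), and the value after removal of each library's length trend (open diamonds). Trpc6 and Trpv2 lie to the right of 0 in both, and Piezo1 lies at -0.32 before and -0.10 after removal of the trend.

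**Figure D4:**
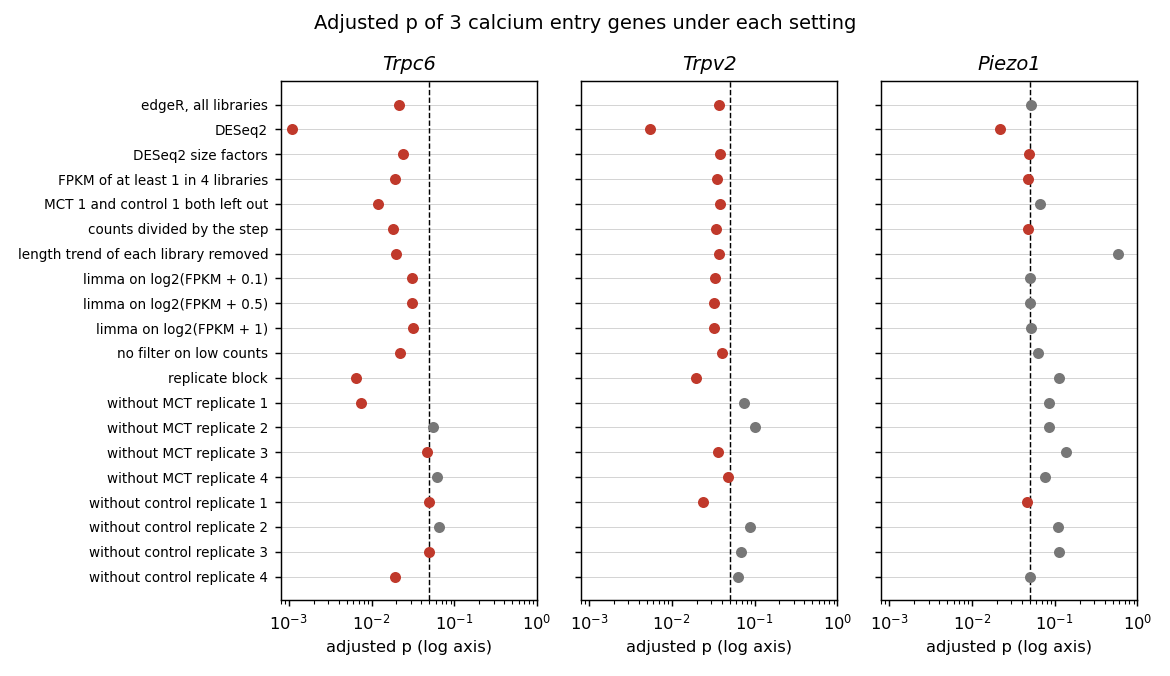
Adjusted p (horizontal log axis, dashed line at 0.05) of Trpc6, Trpv2 and Piezo1 under each processing setting and with each library left out; red points are called. Trpc6 loses its call in 3 settings and Trpv2 in 5, all of them with 1 library left out, and Piezo1 gains one in 5.

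The order of levels was set by a gap between abundant and sparse components. In MCT lungs Trpv2 (34.0 FPKM) and Orai1 (32.7) led, followed by Piezo1 (23.1), Stim1 (17.1) and Stim2 (16.4), then Trpv4 (4.4), Trpc6 (3.89), Cacna1c (2.61) and Trpc1 (1.85). In control lungs Orai1 (31.9) and Piezo1 (28.7) led, followed by Trpv2 (21.0), Stim1 (17.6) and Stim2 (17.0), then Trpv4 (4.59), Cacna1c (2.85), Trpc1 (1.86) and Trpc6 (1.74). In both groups every library held more Stim2 than Trpv4, so that step did not overlap. In MCT, the neighbours that did not differ beyond their ranges were Trpv2 and Orai1, Stim1 and Stim2, and each neighbouring pair from Trpv4 down to Trpc1. In control, they were each pair from Orai1 down to Stim2, and Trpc1 with Trpc6. Trpc6 was last in control and seventh in MCT.

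No library was high or low for all 9 genes. Control 4 held the highest control value of Trpc1, Trpc6, Cacna1c and Stim2 and the lowest of Trpv2, Trpv4 and Orai1. Control 1 held the highest of Trpv2 and Orai1 and the lowest of Trpc6, Cacna1c, Stim1 and Piezo1. In MCT, MCT 3 held the lowest value of Trpv2, Orai1, Stim1 and Piezo1. The spread between libraries was widest for Trpc6, with a coefficient of variation of 33.2% in MCT and 32.2% in control.

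The files place these genes on the rat build Rnor_6.0. Trpc6 (ENSRNOG00000006324) lies on chromosome 8 from 6811543 to 6917535 on the plus strand, and Trpv2 (ENSRNOG00000003104) on chromosome 10 from 48903540 to 48925030 on the plus strand. Piezo1 (ENSRNOG00000056786) lies on chromosome 19 from 55305496 to 55367353 on the minus strand, where it overlaps 207 bases of Ctu2 on the other strand (7.02 FPKM in MCT, 6.43 in control). No source used here gives the strand setting of the counting, so reads from that overlap cannot be assigned to either gene. Of the other members, Orai1 and Trpv4 share chromosome 12 and Trpc1 shares chromosome 8 with Trpc6.

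The upstream sequences of both called genes are shown with that of Orai1, the abundant pore that was not called. They were searched for a hypoxia motif and for that of NFAT, since calcium acts on genes through calcineurin and NFAT. Each is the 250 bases before the annotated start, 5′ to 3′ on the gene's strand, from RefSeq on build GRCr8. Capitals mark ACGTG (the core of a hypoxia response element) and GGAAA (the core bound by NFAT) or their reverse complements CACGT and TTTCC. The Trpc6 stretch is chr8:14043966-14044215 (plus strand), that of Trpv2 chr10:47771973-47772222 (plus strand) and that of Orai1 chr12:39209031-39209280 (minus strand).
Trpc6: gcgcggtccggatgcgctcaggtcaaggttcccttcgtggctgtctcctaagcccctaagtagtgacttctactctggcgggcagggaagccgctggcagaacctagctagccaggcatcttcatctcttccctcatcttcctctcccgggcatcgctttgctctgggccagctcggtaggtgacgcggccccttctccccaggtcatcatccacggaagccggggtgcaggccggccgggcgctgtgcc
Trpv2: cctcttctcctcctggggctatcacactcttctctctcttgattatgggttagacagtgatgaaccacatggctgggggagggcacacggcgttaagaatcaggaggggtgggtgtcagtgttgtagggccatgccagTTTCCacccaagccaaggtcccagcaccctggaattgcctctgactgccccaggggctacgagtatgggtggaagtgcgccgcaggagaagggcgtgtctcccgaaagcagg
Orai1: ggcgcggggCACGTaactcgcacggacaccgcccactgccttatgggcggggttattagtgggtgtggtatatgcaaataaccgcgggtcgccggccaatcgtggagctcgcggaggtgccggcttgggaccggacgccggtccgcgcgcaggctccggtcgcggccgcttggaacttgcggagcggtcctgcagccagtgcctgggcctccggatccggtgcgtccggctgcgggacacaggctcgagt
On either strand, the Trpc6 stretch held neither motif, the Trpv2 stretch held GGAAA once and the Orai1 stretch held ACGTG once. Among 33469 rat promoters of that length, 16.6% held ACGTG and 56.9% held GGAAA. Sequences were found for 7 of the 9 genes, and Trpv4 was the other that held ACGTG. These are matches of letters within a short window, and no binding was measured.

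By the root mean square difference of centred log2 CPM over the 8 libraries, the tested genes most like Trpc6 were Lox, the lysyl oxidase that crosslinks collagen and elastin (0.22), and the replication genes Mcm6 (0.22) and Orc6 (0.24). The mean level of Lox was 51.4 FPKM in MCT lungs and 19.6 in control lungs. Those most like Trpv2 were Dpm3 (0.14), Npm3 (0.15) and Creld2 (0.16).

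Around the 9 genes, 99 tested genes of calcium entry, release, removal and response in 9 lists were examined. Of these, 5 were higher in MCT, 12 were lower and 82 were not called, so 17.2% were called against 20.5% of all genes. Their median log2 fold change was -0.12, against 0.03 over all genes. The number higher was 2 without control 1, without control 3 or without both MCT 1 and control 1, and 3 without MCT 2, MCT 3 or control 2. The number lower was 7 without MCT 2 or control 4. With each library's length trend removed, 6 were higher and 8 lower, so the excess of lower calls was smaller under that setting.

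Other store-operated components were mostly not called. Of 7 tested, 1 was lower and none higher in edgeR, and both at an unadjusted p under 0.05 and by DESeq2 the counts were 2 lower and 1 higher. The called gene was Cracr2b, a relative of a regulator of ORAI pores, at 19.1 ± 4.24 FPKM in MCT against 29.8 ± 3.44 in control (log2 fold change -0.64, SE 0.16). That call was lost without MCT 4, control 1 or control 4 (adjusted p 0.0506, 0.0526 and 0.0539). Orai2, another pore of the family, stood at 6.39, 4.06, 3.86 and 2.62 FPKM in MCT, against 2.58, 2.03, 3.29 and 2.08 in control. All but MCT 4 lay above every control library. Its log2 fold change was 0.76 (95% interval 0.14 to 1.38, adjusted p 0.0821 in edgeR). It passed with DESeq2 (adjusted p 0.0326) and without MCT 4 (0.0334), and over all settings the log2 fold change was 0.48 to 0.93, with 0.48 without MCT 1 (adjusted p 0.16). Orai3, the remaining ORAI pore, stood at 14.6 FPKM in both groups, and Saraf, which inactivates store-operated entry, at 116 ± 6.45 in MCT and 122 ± 6.55 in control. Orai2, Orai3 and Saraf were picked after their values were seen.

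Of 19 other TRP genes, 4 were lower in edgeR and none higher, and at an unadjusted p under 0.05 the counts were 7 lower and 0 higher (DESeq2, 6 and 0). Trpm5, a channel of chemosensory tuft cells that calcium opens to sodium, averaged 3.68 ± 2.95 FPKM in MCT lungs and 22.0 ± 5.92 in control (log2 fold change -2.57, SE 0.55). MCT 1 stood at 7.89 FPKM, above the other MCT libraries (1.44 to 3.53), and without it the log2 fold change was -3.27. Trpm4, its relative and likewise opened by calcium, averaged 9.64 ± 1.51 in MCT lungs and 17.3 ± 1.14 in control (-0.84, SE 0.12). Pkd1, which encodes polycystin-1, averaged 12.8 ± 1.13 in MCT lungs and 17.9 ± 1.35 in control (-0.48), and this call was lost when the length trend was removed (-0.17, adjusted p 0.179).

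Voltage-gated, ligand-gated and other mechanosensitive channels gave few calls. None of 5 other voltage-gated pores passed in edgeR (1 higher at an unadjusted p under 0.05, 0 by DESeq2), the most abundant being Cacna1d (2.54 ± 0.46 FPKM in MCT, 2.18 ± 0.173 in control). Of 10 auxiliary subunits, Cacnb2, which carries Cav1.2 to the membrane, was lower, at 5.04 ± 1.35 in MCT against 8.30 ± 0.989 in control (-0.72, SE 0.19), a call lost without MCT 2, MCT 3, control 2 or control 4 (adjusted p 0.0657 to 0.0715). None of 7 ligand-gated genes was called in edgeR (1 higher at an unadjusted p under 0.05 and 1 by DESeq2), with P2rx4, an ATP-gated channel, at 40.3 ± 6.96 FPKM in MCT and 36.2 ± 6.0 in control. None of 7 other mechanosensitive genes was called in edgeR (2 lower at an unadjusted p under 0.05, 1 by DESeq2), with Tmem63b at 47.9 ± 4.85 in MCT and 57.7 ± 6.78 in control.

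Itpr2, an inositol trisphosphate receptor, was the 1 of 8 release channels called, at 1.81 ± 0.535 FPKM in MCT against 3.46 ± 0.529 in control (-0.93, SE 0.22), and its call was lost without control 4 (adjusted p 0.052). Of 15 pumps, exchangers and their regulators, 2 were higher and 2 lower. Atp2a3, the SERCA3 pump found in endothelium and blood cells, averaged 19.6 ± 3.32 FPKM in MCT lungs and 61.6 ± 13.1 in control (-1.65, SE 0.17, adjusted p 0.000569), and kept its call in all 19 alternatives. Atp2a2, the SERCA2 pump of muscle, averaged 39.7 ± 3.21 in MCT lungs and 33.2 ± 1.25 in control (0.26, adjusted p 0.0498), a call lost in 11 of 19 settings, among them the loss of any 1 library but MCT 4. Atp2c2, a Golgi pump of secretory epithelium, was lower (-0.94, SE 0.23), a call lost without MCT 2, MCT 3 or control 4. Pln, the inhibitor of SERCA2, was higher (0.94, SE 0.26), a call lost in 7 settings, among them the loss of any 1 library but MCT 2 and control 4.

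Among 21 tested genes that respond to calcium, 3 were higher and 3 lower. Rcan1, an inhibitor and target gene of calcineurin, averaged 30.7 ± 6.16 FPKM in MCT lungs and 16.7 ± 1.11 in control (0.88, SE 0.13, adjusted p 0.00246). Ppp3r1, the regulatory subunit of calcineurin, was higher by 0.30 on the log2 scale, a call lost in 6 settings: without MCT 2, control 1, control 2 or control 3, without MCT 1 and control 1 together, and with the replicate block (adjusted p 0.0511 to 0.0736 for single libraries and the block, 0.075 for the pair). Camk2b, a calmodulin kinase, averaged 1.25 ± 0.0793 FPKM in MCT lungs and 3.22 ± 1.02 in control (-1.35, SE 0.23). Nfatc2, a transcription factor that calcineurin activates, had a log2 fold change of -0.82 and Capn1, a calcium-activated protease, of -0.25. Those calls were lost in 12 and 10 of 19 settings, the loss of 1 library among them (all but control 1 and control 4 for Nfatc2, all but MCT 4 and control 1 for Capn1).

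**Figure D5:**
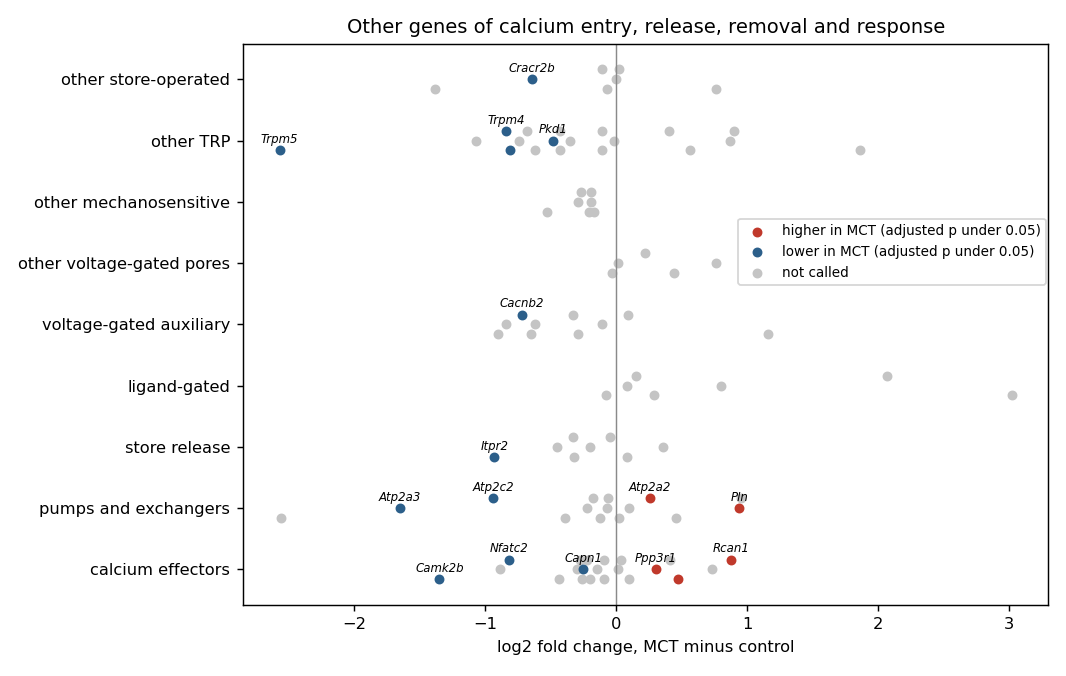
Log2 fold change (MCT minus control, horizontal axis) of the 99 other tested calcium genes by list, each point a gene; red points were called higher, blue points lower and grey points not called. Called genes described in the text are named; of all called genes 5 lie to the right of 0 and 12 to the left.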

How the data were processed

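The authors deposited 1 table with an estimated count and an FPKM value for 32623 genes and 8 libraries (per the file headers). The submitters' processing notes name cutadapt 1.9, HISAT2 2.0.4, StringTie 1.3.4d, edgeR and the build Rnor_6.0, without settings. Per the labels' protocols, libraries were made with oligo(dT) beads. Low estimated counts pile up at multiples of about 3.67, taken as 1 read pair.

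The counts were tested with edgeR 4.0.16 (R 4.3.3): filterByExpr with a minimum count of 10, TMM scaling, a robust quasi-likelihood fit over 16715 genes and two-sided Benjamini-Hochberg adjusted p under 0.05. They were not divided by 3.67, so the minimum of 10 is on the scale of the deposited counts and not of read pairs. Division by that step was an alternative, in which Piezo1 was called lower (edgeR adjusted p 0.0475). The standard error is the log2 fold change over the root of the F statistic. Within-library ratios were tested by exact permutation over 70 splits. Alternatives used limma 3.58.1 and DESeq2 1.42.0. On 5 simulated data sets of MCT against control (16377 to 16406 genes tested), recovery was 17.2% at a 1.5-fold change, 48.8% at 2-fold and 74% at 4-fold, and 4.14% of calls were unchanged genes. The simulations changed a far smaller share of genes than was called in the data. Their adjusted threshold was therefore stricter, and the recovery rates do not carry over to these data. No 2 libraries of a group were identical.

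The 9 genes, the lists and the alternatives were chosen with earlier results of these data known. From each calcium list, the called genes with the 3 smallest p were named, or else the most abundant tested gene; Atp2a2, Ppp3r1, Nfatc2, Capn1, Orai2, Orai3 and Saraf were added after their values were seen, and some results are not reported here. Genes like a called one were the 3 nearest with mean FPKM of at least 2. Replicate numbers are shared between groups, but no label says that they pair animals.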

Additional observations from a re-analysis of the deposited data

Results flagged for a closer look

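Sets of 4 values (a gene or ratio in 1 group) were searched for a single distant library, and 4 of 70 held one, close to the 3.5 that chance gives. The distance is that library's gap to the nearest other on log2 CPM, divided by the whole range. It was 0.936 for Trpv4 in MCT lungs, where MCT 1 stood at 5.43 FPKM and the others at 4.03 to 4.07. For Orai1 in MCT lungs it was 0.863, with MCT 3 at 27.32 FPKM and the others at 33.92 to 35.40. For Itpr2 in MCT lungs it was 0.888, with MCT 1 at 1.02 FPKM and the others at 1.96 to 2.16. For Saraf in MCT lungs it was 0.832, with MCT 3 at 106.45 FPKM and the others at 117.42 to 121.23.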

How the results depend on the processing

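The number of calcium entry genes called higher was 2 in every setting with all libraries and with MCT 1 and control 1 both left out, and 0 to 2 with 1 library left out. The number called lower was 1 with DESeq2, with DESeq2 size factors, with FPKM of at least 1 in 4 libraries and with counts divided by the step (Piezo1 each time), and 0 to 1 with 1 library left out. Of the other calcium genes, 7 were higher and 19 lower with DESeq2. With MCT 1 and control 1 both left out, 2 were higher and 15 lower. With the length trend removed, 6 were higher and 8 lower. With 1 library left out, 2 to 5 were higher and 7 to 13 lower. Over all genes, leaving out 1 library gave 1191 to 1946 higher and 975 to 1730 lower, with both lowest counts without MCT 2. The causes were not tested. No called direction reversed. Log2 ratios without 1 library ranged from -0.21 to 0.04 for Stim1/Orai1, -0.16 to 0.08 for Stim2/Stim1, 1.01 to 1.42 for Trpc6/Trpc1 and -0.86 to -0.66 for Trpv4/Trpv2, in designs too small to pass a threshold. Same-numbered libraries deviated together with correlations of -0.08 to 0.11, and differently numbered ones with -0.08 to 0.07. The highest of all, 0.11, was that of MCT 1 with control 1. The numbers were not taken to pair animals. With the replicate block, 2 calcium entry genes were higher and 0 lower, 3 other calcium genes were higher and 10 lower, and 1436 genes in all were higher and 1271 lower. In control, Trpc6 had 64 to 97 read pairs and a coefficient of variation of 32.2%, and Trpc1 had 95 to 107 and 13.7%. The part of counting in the spread of Trpc6 was not tested.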
